A study of Mus musculus with 28 samples.

Results

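Mouse induced neural stem cells (miNSC) made from tail-tip fibroblasts with the factor set B/K/eSox17FNV, called BKF, were compared with those made with K/M/eSox17FNV, called KMF. The comparison used 4 of the 28 deposited libraries, 2 from each side, chosen by their titles alone. In the labels eSox17FNV is an engineered form of the transcription factor Sox17, carried by both sides, and the letters B, K and M are not spelled out. The sides therefore shared K and eSox17FNV, and differed in B, in the BKF set only, and M, in the KMF set only. Each side was 1 line, so that a difference between cocktails and a difference between the lines cannot be told apart.

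Fibroblasts of both sides came from Sox2-GFP mice aged 1.0 year. Per the labels' protocols they received lentivirus for M2rtTA, the activator that answers to doxycycline, and doxycycline-inducible lentiviruses for the factors. Doxycycline at 1 µg/mL was given for 18 days in a neural stem cell medium with bFGF and EGF, each at 10 ng/mL, and colonies were picked at day 20 and expanded on Matrigel. The passage of the BKF and KMF lines was not given. Replicates may be libraries of the same picked colony, and the spread between them may then be technical only. The p-values rest on the spread within groups pooled over all 28 libraries, in 14 groups of 2. They do not measure the spread between separately made lines. Beside the lines stood 5 other groups of 2 libraries each, all Sox2-GFP. These were embryonic fibroblast (MEF) miNSC lines made with BKF and with KMF, a tail-tip line made with B/K/M/eSox17FNV (4F) at passage 8 and again at passage 18, and the tail-tip fibroblasts without factors. The 4F line and the fibroblasts without factors were also of age 1.0 year. Cultured neural stem cells (NSC) from 2.5-year-old mice, also Sox2-GFP, at passages 2 and 5, were used too.

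Neural stem cells divide in response to EGF and FGF, are kept undivided in fate by Notch signals, and can give neurons, astrocytes and oligodendrocytes. Fibroblasts of a given body level carry a matching set of active Hox genes, the factors that mark position along the head-to-tail axis. Mammalian cells that run short of amino acids, or whose protein synthesis is stressed, translate the factor Atf4, which switches on genes for amino acid synthesis, uptake and one-carbon metabolism.

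Of 16275 genes tested, 2110 (13%) were called at an adjusted p under 0.05, with 1098 (6.75%) higher in BKF and 1012 (6.22%) higher in KMF. A change of at least 2-fold was also met by 676 genes (4.15%), 389 higher in BKF (2.39%) and 287 higher in KMF (1.76%). Values of the sides did not overlap for 8929 genes (54.9%), and 4207 (25.8%) had an unadjusted p under 0.05. Fold changes are on the scale of log2(value + 1), BKF minus KMF, and their errors are standard errors of the fit. The plot of fold change by level shows genes called on either side over the whole range of levels. The deposited values summed to between 15567772 and 15569574 in the 4 libraries after a normalisation that left no trace of depth, so that read depth is unknown. BKF replicates differed by a median of 0.207 in absolute log2 value and KMF replicates by 0.0840. Calls fell to 894 without BKF replicate 2, 1007 without KMF replicate 1 and 989 without KMF replicate 2, and rose to 2867 without BKF replicate 1. With only the 4 libraries in the fit they fell to 430, and 89 of the 150 called genes named by rule lost their call there, which is not repeated at each gene.

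**Figure D1:**
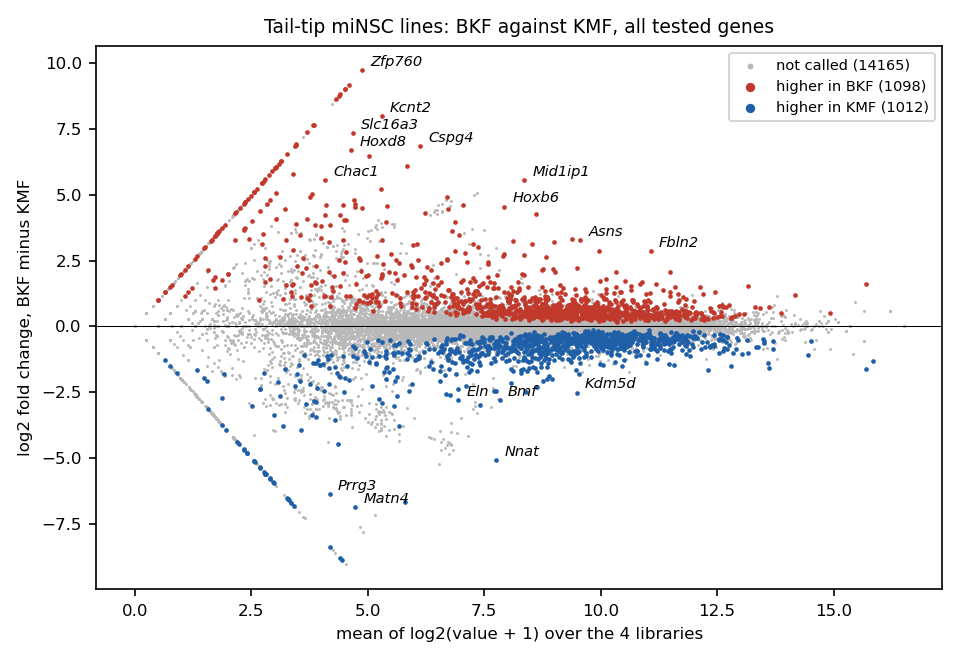
Log2 fold change (BKF minus KMF) against the mean log2(value + 1) of the 4 tail-tip libraries, 1 point per tested gene, red for the 1098 genes called higher in BKF and blue for the 1012 higher in KMF. Genes at 0 on one side form the straight edges, and Kcnt2, Cspg4, Mid1ip1, Matn4 and Nnat stand far from the line at 0.

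Both lines held defining genes of neural stem cells and little of the main fibroblast genes. In bulk libraries such as these, fewer cells of a type and less RNA per cell cannot be told apart. Olig2, a neural progenitor factor, stood at 21808 and 17984 in BKF and at 17984 and 20143 in KMF, against 0 in both fibroblast libraries. Nes, the intermediate filament nestin, stood at 6861 and 7289 in BKF and at 6468 and 5952 in KMF, against 76 and 83 in fibroblasts. Col1a1, the main collagen gene of fibroblasts, stood at 26 and 25 in BKF and at 32 and 32 in KMF, against 92914, the highest value of the scale, in both fibroblast libraries. On a line from fibroblast (0) to NSC (1) over all tested genes, BKF stood at 0.889 and 0.871 and KMF at 0.900 and 0.904. Of 28 neural stem and progenitor genes, 1 was called higher in BKF and 3 in KMF, 14.3% beside 13% of all tested genes. The median log2 change was 0.00, near the 0.01 of all tested genes.

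The neural stem gene higher in BKF was Sox1, a SoxB1 factor of early neural cells, at 108 and 77 in BKF and 13 and 14 in KMF (log2 fold change 2.67 ± 0.42, adjusted p = 0.000500). Its values did not overlap, and those in NSC were 1039 and 1148. Fut9, the enzyme that makes the stem cell surface sugar LeX, was higher in KMF, at 5321 and 5321 against 3733 and 2567 in BKF (log2 fold change -0.78 ± 0.17, adjusted p = 0.00650). Notch1, the receptor that holds neural stem cells in their state, stood at 13046 in each KMF library and at 8217 and 4990 in BKF (log2 fold change -1.03 ± 0.25). Lrrn1, a membrane protein of neural progenitors, stood at 21805 in each KMF library and at 9148 and 5740 in BKF. The calls of Fut9, Notch1 and Lrrn1 were lost without BKF replicate 2, and those of Notch1 and Lrrn1 also without either KMF replicate. Sox1 kept its call without each of the 4 libraries. The list then held 1 call without BKF replicate 2 and 2 without either KMF replicate.

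A large share of the list of amino acid supply genes was called. This list, like the others, was chosen with earlier results of these data known. Of 21 tested genes for serine, one-carbon and amino acid metabolism and its stress response, 13 were called higher in BKF and 0 in KMF, 61.9% of the list beside 13% of all tested genes. Their median log2 change was 1.15, and 20 of 21 were above 0. Without each of the 4 libraries in turn, 11 of the 13 kept their call, and Shmt2 and Psph did not. Psph was lost without BKF replicate 2 and without either KMF replicate, and Shmt2 when any single library was left out. With only the 4 libraries of the comparison in the fit, 11 were called, and Trib3 and Slc7a11 were not among them.

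Upstream windows of 3 genes of the list are printed because a sequence to which Atf4 and its C/EBP partners can bind, TGATGNAA, was found in them by letter search on both strands. The windows are the 250 bases before the RefSeq start on GRCm38.p6, in the sense of the gene, and matches are in capitals. The window of Asns is chr6:7693210-7693459 on the minus strand, with its match 23 to 16 bases before the start on the same strand as the gene. That of Chac1 is chr2:119350992-119351241 on the plus strand, with the match on the opposite strand at 193 to 186 bases. That of Slc7a11 is chr3:50443614-50443863 on the minus strand, with a match on the same strand at 66 to 59 bases and another on the opposite strand at 47 to 40 bases.
Asns: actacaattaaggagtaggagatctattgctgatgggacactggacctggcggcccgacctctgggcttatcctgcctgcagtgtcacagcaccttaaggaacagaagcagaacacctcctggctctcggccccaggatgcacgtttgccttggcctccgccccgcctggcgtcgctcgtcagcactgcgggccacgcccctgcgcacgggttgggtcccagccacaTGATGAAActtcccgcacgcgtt
Chac1: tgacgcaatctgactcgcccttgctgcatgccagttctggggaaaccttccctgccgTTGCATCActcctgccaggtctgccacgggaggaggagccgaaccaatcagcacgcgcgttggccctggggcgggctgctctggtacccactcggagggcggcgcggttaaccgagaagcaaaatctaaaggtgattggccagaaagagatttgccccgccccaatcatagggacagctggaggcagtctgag
Slc7a11: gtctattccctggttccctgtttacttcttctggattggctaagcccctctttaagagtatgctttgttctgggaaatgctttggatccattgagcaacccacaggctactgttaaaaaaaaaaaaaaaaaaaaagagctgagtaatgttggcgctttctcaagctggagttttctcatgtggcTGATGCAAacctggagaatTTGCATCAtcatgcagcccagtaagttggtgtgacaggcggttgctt
TGATGNAA was present in 5 of the 19 list genes that had a window (26.3%), in 338 of 11898 tested genes with one (2.84%) and in 3.45% of all windows in the RefSeq table. Of the genes with a window, it was in 27 of 866 higher in BKF (3.12%) and in 20 of 778 higher in KMF (2.57%). The other list genes with a match were Pycr1 and Vldlr, neither of which was called. Of the 12 called list genes with a window, 3 held the motif (25.0%), near the share of the whole list. This motif was chosen after the values were seen, and a match is a description of letters and not a bound site. CACGTG, the core E-box, was found in 9.24% of the windows of genes higher in BKF, in 7.71% of those higher in KMF and in 8.97% of tested genes. ATGCAAAT, the octamer, was found in 1.15%, 2.44% and 1.62%, and CCGCCC, a GC box, in 65.6%, 66.6% and 57.6%.

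Asns, asparagine synthetase, stood at 2190 and 2547 in BKF and at 236 and 243 in KMF (log2 fold change 3.30 ± 0.48, adjusted p = 0.000295). BKF was 9.83-fold higher and near the level of the tail-tip fibroblasts, 2018 and 1959, while KMF was near the NSC, 224 and 434. Chac1, which degrades glutathione and is a sensitive target of Atf4, stood at 140 and 94 in BKF and at 1 and 2 in KMF (log2 fold change 5.56 ± 0.78). Its fibroblast values were 234 and 252, and those of NSC 3 and 3. Trib3, a pseudokinase that feeds back on Atf4, stood at 25 and 32 in BKF and at 0 and 1 in KMF (log2 fold change 4.37 ± 0.54). Its fibroblast values were 320 and 338, so that BKF lay between the fibroblasts and KMF.

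The other called genes of the list cover one-carbon metabolism, transport and the regulator. Mthfd2, the mitochondrial folate enzyme, stood at 1346 and 1792 in BKF and at 182 and 150 in KMF (log2 fold change 3.22 ± 0.55). Aldh18a1, which starts proline synthesis, stood at 2876 and 2469 against 616 and 639 (log2 fold change 2.08 ± 0.32). Psat1 of the serine pathway showed a smaller difference, 6859 and 6466 in BKF against 4077 in each KMF library (log2 fold change 0.71 ± 0.16). Phgdh, the first enzyme of that pathway, was not called, at 6031 and 6859 against 5430 and 5321. Among transporters, Slc7a5, the large neutral amino acid carrier, stood at 6468 and 5430 in BKF and at 1378 and 1450 in KMF (log2 fold change 2.07 ± 0.39). Its partner chain Slc3a2 stood at 3924 and 4522 against 1643 and 1566 (log2 fold change 1.39 ± 0.14, adjusted p = 1.01e-05). Slc7a11, the cystine carrier that also pairs with Slc3a2, stood at 254 and 232 against 116 and 126 (adjusted p = 0.000706). All these values lay apart between the lines, as did those of 54.9% of all tested genes. Atf4 itself stood at 3888 and 4710 in BKF and at 1902 and 1959 in KMF (log2 fold change 1.15 ± 0.18, adjusted p = 0.000633). Ddit3, the stress factor CHOP, was not called, with overlapping values of 77 and 80 against 64 and 80.

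The same list was at other levels in the embryonic lines. There 0 of its genes were called higher in BKF and 2 in KMF, with a median log2 change of -0.03, beside 1670 called of all tested genes (10.3%), 808 (4.96%) higher in embryonic BKF and 862 (5.30%) in embryonic KMF. Asns stood at 401 and 422 in embryonic BKF and at 321 and 346 in embryonic KMF, and Chac1 at 0 and 0 against 1 and 1. The difference between the tail-tip and the embryonic contrast, an interaction term in the same fit, was called for 11 of the 21 genes, beside 13.1% of all tested genes, 6.77% above 0 and 6.33% below. For Asns it was 2.99 ± 0.68 in log2 (adjusted p = 0.00863). In the tail-tip 4F line at passage 8, Asns was at 445 and 495 and Chac1 at 0 and 6.

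**Figure D2:**
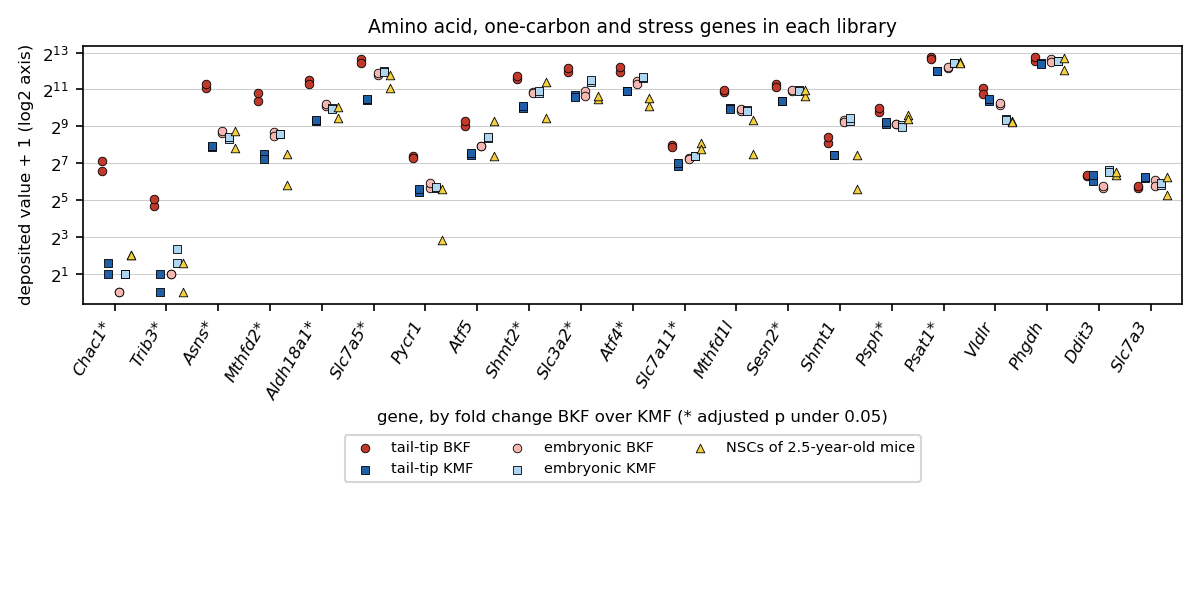
Deposited value + 1 on a log2 axis for each of the 21 tested amino acid, one-carbon and stress genes in each library of tail-tip BKF and KMF, of embryonic BKF and KMF, and of NSC. A star marks an adjusted p under 0.05 between the tail-tip lines. The tail-tip BKF points lie above the tail-tip KMF points with no overlap for 19 of the 21 genes. Values did not overlap, in either direction, for 54.9% of all tested genes.

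Many genes of ribosome synthesis and of mitochondrial respiration were also called higher in BKF, with smaller changes. Of 35 tested nucleolar and ribosome synthesis genes, 19 were called higher in BKF and 0 in KMF, 54.3% beside 13% of all tested genes. The median log2 change was 0.54, and all 35 were above 0. Its members included Srm, Odc1, Cdk4 and Ldha, which are not ribosome synthesis genes. Srm and Odc1 were among the 19 called. Nop2, a methyltransferase of ribosomal RNA, stood at 432 and 472 in BKF and at 191 and 136 in KMF (log2 fold change 1.48 ± 0.22). Gnl3, nucleostemin, a nucleolar GTPase of stem cells, stood at 1024 and 1103 against 620 and 588 (log2 fold change 0.81 ± 0.08, adjusted p = 2.92e-06). Ubtf, which opens ribosomal DNA for RNA polymerase I, stood at 2390 and 2763 against 1692 and 1657. Nolc1, a nucleolar chaperone, stood at 1016 and 1024 against 614 and 663. These 4 kept their calls without each library, as did 6 of the 19 in all, and the count was 6 without BKF replicate 2 and 8 without either KMF replicate. With only the 4 libraries in the fit 2 were called. The protein genes of the cytosolic ribosome showed no such count, with 0 of 48 called either way, 3 at an unadjusted p under 0.05 and a median of 0.07, and 3 called without BKF replicate 1. Between the embryonic lines 0 of the 35 were called higher in BKF and 2 in KMF.

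Of 32 tested oxidative phosphorylation genes, 19 were called higher in BKF and 0 in KMF, 59.4% beside 13% of all tested genes. The median log2 change was 0.59, and all 32 were above 0. Uqcrc1, a core protein of complex III, stood at 2716 and 3366 in BKF and at 1862 and 1882 in KMF (log2 fold change 0.69 ± 0.11, adjusted p = 0.000522). Uqcrfs1, the iron-sulphur protein of the same complex, stood at 2336 and 3222 against 1807 and 1786. Atp5c1, a subunit of ATP synthase, stood at 3578 and 4209 against 2601 and 2547 (log2 fold change 0.59 ± 0.10). Cox5a of complex IV stood at 1692 and 2401 against 1042 and 969, and its call was lost without BKF replicate 2. In that library 31 of the 32 genes were higher than in BKF replicate 1, as were 46 of the 48 cytosolic ribosomal protein genes, and the part of this in the result was not tested. The count was 4 without BKF replicate 2, 8 without KMF replicate 1 and 6 without KMF replicate 2, and 1 with only the 4 libraries in the fit. The 13 genes of the mitochondrial genome were not called, with a median of 0.00 and 0 at an unadjusted p under 0.05. For the embryonic lines 0 of these 32 were called higher in BKF and 2 in KMF.

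**Figure D3:**
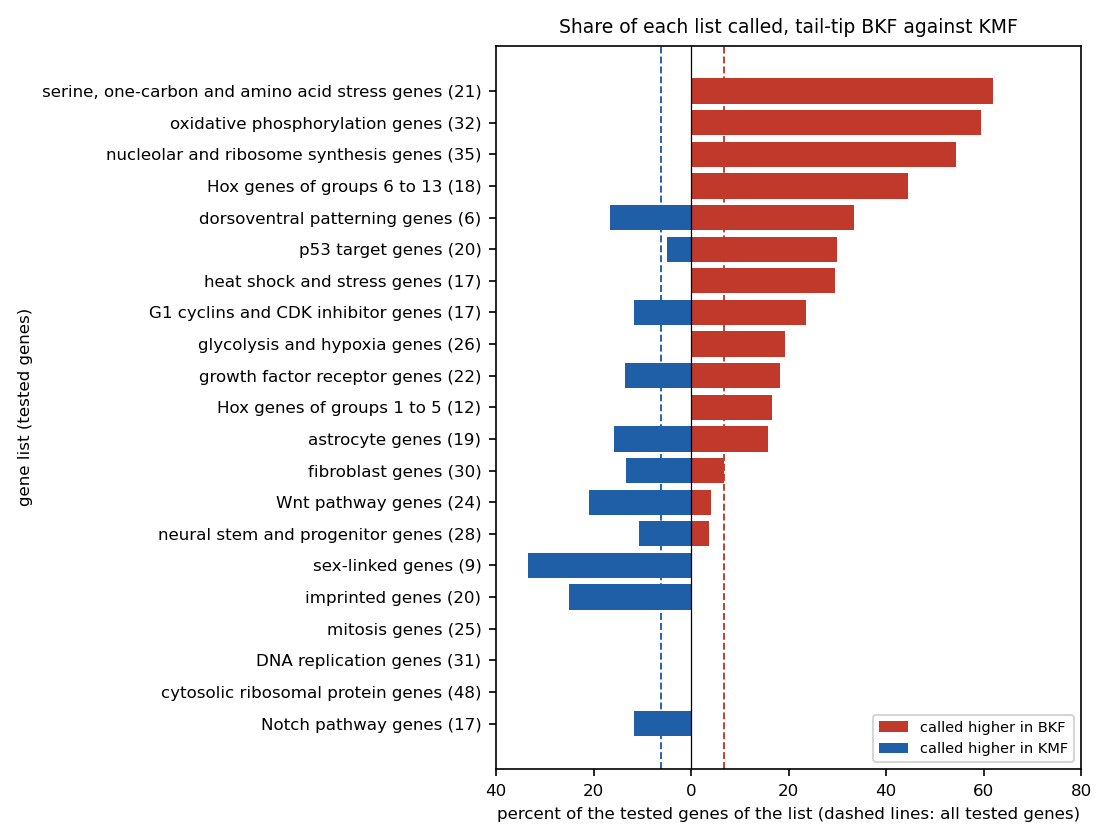
Percent of the tested genes of each list called higher in tail-tip BKF (red, to the right) or in KMF (blue, to the left), with dashed lines at the 6.75% and 6.22% of all tested genes. Amino acid, oxidative phosphorylation, nucleolar and Hox 6 to 13 lists have bars to the right only, and imprinted and sex-linked lists to the left only.

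Several posterior Hox genes were higher in BKF than in KMF. Of 18 tested genes of groups 6 to 13, 8 were called higher in BKF and 0 in KMF (44.4%, median log2 change 1.39). Of 12 tested genes of groups 1 to 5, 2 were called higher in BKF and 0 in KMF (16.7%), with a median of 0.05. The share of all tested genes was 13%. Without BKF replicate 2 or either KMF replicate, 5 of the 18 were called, and Hoxa7, Hoxb7 and Hoxa9 were lost, Hoxa9 without BKF replicate 1 as well.

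Hoxd8 stood at 243 and 266 in BKF and at 1 and 2 in KMF (log2 fold change 6.70 ± 0.29, adjusted p = 2.49e-10). Its neighbour Hoxd9 stood at 84 and 72 against 1 and 0 (log2 fold change 5.80 ± 0.38), and Hoxd4 at 40 and 28 in BKF and listed at 0 in both KMF libraries. The Hoxd genes were therefore near 0 in KMF, and they were so in the tail-tip fibroblasts, where Hoxd8 was at 1 and 0 and Hoxd9 at 0 and 0. Hoxb6 stood at 1002 and 1383 in BKF and at 48 and 50 in KMF (log2 fold change 4.56 ± 0.39), with 38 and 52 in fibroblasts. Hoxb9 stood at 410 and 372 against 30 and 32 (log2 fold change 3.61 ± 0.36), and its fibroblast values of 902 and 910 were above both lines. Hoxa7 stood at 521 and 416 against 26 and 32. Hoxb8, between Hoxb6 and Hoxb9 on chromosome 11, was present in both lines and not called, at 2735 and 3303 in BKF and 1910 and 2130 in KMF. Hoxc4 was at 25 and 24 in BKF and listed at 0 in KMF.

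The most posterior genes of the fibroblasts were near or at 0 on both sides. Hoxb13, a gene of the tail region, stood at 1346 and 1378 in fibroblasts, at 10 and 5 in BKF and at 0 in both KMF libraries. Hoxc13 stood at 535 and 521 in fibroblasts and was listed at 0 in all 4 libraries of the lines, as was Hoxc12, at 609 and 564 in fibroblasts. The 4F line at passage 8 had Hoxd8 at 72 and 80, Hoxa7 at 473 and 320 and Hoxa9 at 1299 and 680, the last against 5 and 3 in BKF and 0 in both KMF libraries. In the embryonic lines Hoxd8 stood at 116 and 86 in BKF and 66 and 46 in KMF, and the difference of the contrasts was 5.86 ± 0.41 in log2 (adjusted p = 1.18e-07).

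**Figure D4:**
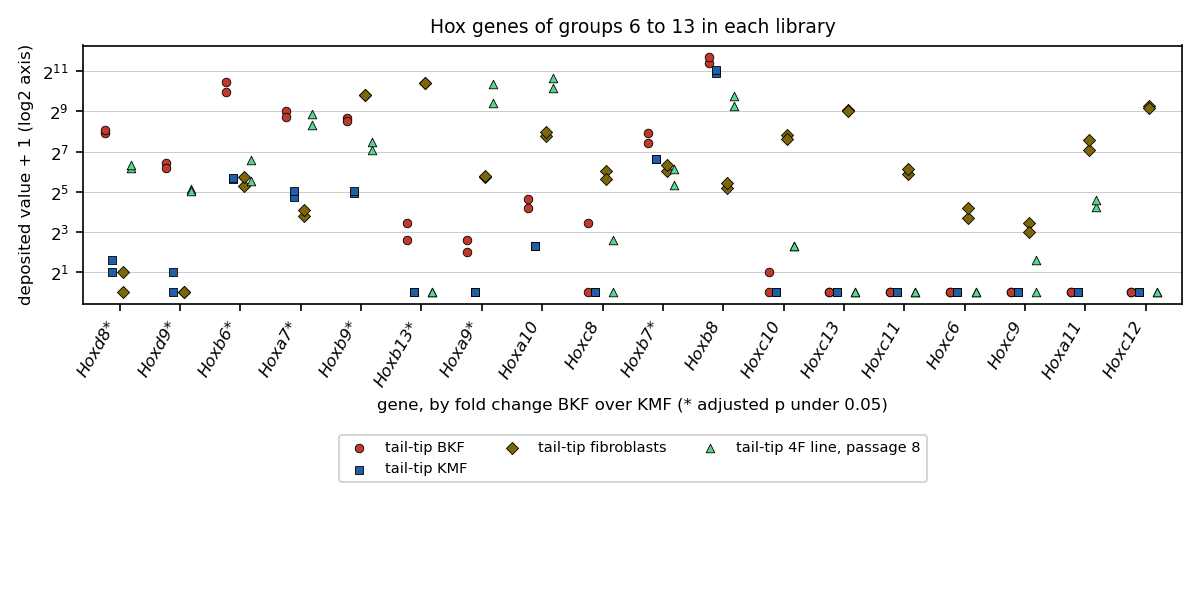
Deposited value + 1 on a log2 axis for the 18 tested Hox genes of groups 6 to 13 in each library of tail-tip BKF, KMF, fibroblasts and the 4F line at passage 8. Stars mark the 8 genes with an adjusted p under 0.05, for which the BKF points lie above the KMF points, and the fibroblasts are high for Hoxc12, Hoxc13 and Hoxb13 where both lines are at or near 0.

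Regional factors of the neural tube differed too. Of 6 tested dorsoventral patterning genes, 2 were called higher in BKF and 1 in KMF. Dbx2, a factor of intermediate progenitors of the neural tube, stood at 434 and 572 in BKF and at 18 and 26 in KMF (log2 fold change 4.46 ± 0.70, adjusted p = 0.000518). Nkx2-2, a ventral factor also used by oligodendrocyte precursors, stood at 38 and 49 against 1 and 1 (log2 fold change 4.46 ± 0.45). Both were also called higher in embryonic BKF, Dbx2 at 38 and 40 against 0 and 0 and Nkx2-2 at 12 and 18 against 2 and 1. Nkx6-1, of the ventral progenitors, was called higher in tail-tip KMF at 284 and 358 against 154 and 124, and lost the call without BKF replicate 2 or either KMF replicate. Otx1, a forebrain factor, was higher in KMF at 75 and 84 against 26 and 20 (log2 fold change -1.76 ± 0.31). It was the 1 called of 8 tested forebrain genes (12.5%), and 1 of 10 midbrain and hindbrain genes was called (10.0%). Both shares lay near that of all tested genes.

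A list of reprogramming factor genes was read as a check of the lines, with vector and endogenous transcripts not told apart by the table. Of these, the labels name only Sox17, as eSox17FNV, in the cocktails, since B, K and M are not spelled out. Whether the others were carried is not given. Sox17 stood at 384 and 254 in BKF and at 62 and 29 in KMF (log2 fold change 2.85 ± 0.42, adjusted p = 0.000279), against 0 and 1 in fibroblasts and 0 in both libraries of the 4F line at passage 8. Doxycycline had been given to day 18 and the lines were expanded afterwards. Myc, the growth regulator, stood at 1400 and 1282 in BKF and at 466 and 531 in KMF (log2 fold change 1.43 ± 0.30, adjusted p = 0.00481). Fibroblasts had 544 and 546, near KMF. Klf4 was not called, at 190 and 136 against 286 and 362. Neither Pou3f4 nor Pou3f2, neural POU factors, was called, the first at 745 and 548 against 1388 and 1444 and the second at 949 and 821 against 1036 and 1039. Sox2 overlapped between the sides, at 2265 and 2745 against 2854 and 2504.

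Of the 11 tested genes of the Myc, Max and Mxd network, Myc was called higher in BKF, and Mxd1 and Mlxip in KMF. These were 27.3% of the list, beside 13% of all tested genes. Mxd1, a repressor that competes with Myc for Max, stood at 370 and 326 in KMF and 196 and 193 in BKF (log2 fold change -0.83 ± 0.26). Mlxip, a glucose-sensing relative, stood at 697 and 647 against 443 and 290. Both lost the call when single libraries were left out, Mxd1 when any single library was left out and Mlxip without BKF replicate 2 or either KMF replicate. The other 8 were not called, Max at 706 and 802 in BKF and 745 and 697 in KMF, Mycl at 414 and 389 against 744 and 730, and Mxd4 at 1994 and 1943 against 2798 and 2716. Mlx was at 211 and 204 against 248 and 242, Mnt at 271 and 200 against 263 and 272, and Mga at 1358 and 977 against 1087 and 989. Mxd3 was at 243 and 318 against 180 and 156, and Mxi1 at 1434 and 1781 against 1764 and 1781. Odc1, the polyamine enzyme and a known Myc target, stood at 4412 and 4989 in tail-tip BKF and 2318 and 2326 in KMF, and lost its call without BKF replicate 2 or either KMF replicate. Odc1 was counted in the nucleolar list too. In the embryonic lines it stood the other way, at 3000 and 3194 in BKF and 8894 and 9950 in KMF. Myc itself was at 2704 and 2682 against 3666 and 3427 there, a difference that was not called.

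DNA replication genes stood higher in BKF without passing the limma test singly. All 31 tested were above 0, with a median log2 change of 0.42, and 29 did not overlap, beside 54.9% of all tested genes. Of the 31, 0 were called, 5 had an unadjusted p under 0.05, and 3 were called, all higher in BKF, with only the 4 libraries in the fit. Their summed values were 36679 and 44219 in BKF and 28312 and 28481 in KMF. The NSC libraries, of passages 2 and 5, enter the pooled spread as replicates and had sums of 7461 and 38329. Of 25 mitosis genes 0 were called, with a median of 0.19 and 0 at an unadjusted p under 0.05. Of 17 G1 cyclins and CDK inhibitors, 4 were called higher in BKF and 2 in KMF, 35.3% beside 13% of all tested genes. Ccnd2, cyclin D2, stood at 3924 and 3000 in BKF and 1065 and 1048 in KMF (log2 fold change 1.70 ± 0.24, adjusted p = 0.000200). Ccnd3 stood at 832 and 1004 against 530 and 451 (log2 fold change 0.90 ± 0.11). Cdkn1a, the p53 target p21, stood at 4412 and 4522 against 2416 and 2318 (log2 fold change 0.92 ± 0.12, adjusted p = 9.08e-05). At the Cdkn2 locus the neighbours moved apart, Cdkn2a being higher in BKF at 913 and 1274 against 434 and 506 (log2 fold change 1.20 ± 0.17). Cdkn2b, the inhibitor p15, was lower in BKF at 21 and 28 against 121 and 160 (log2 fold change -2.47 ± 0.21, adjusted p = 9.18e-07). The fibroblasts had more of both, with 3068 and 3048 for Cdkn2a and 1263 and 1282 for Cdkn2b. Cdkn1c was the other inhibitor called higher in KMF, at 56 and 61 against 20 and 22, and lost its call when any single library was left out.

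Of 20 tested p53 target genes, 6 were called higher in BKF and 1 in KMF (median log2 change 0.27), and 6 of the 7 kept the call without each library. The 7 called were 35.0% of the list, beside 13% of all tested genes. Phlda3, an inhibitor of Akt, stood at 822 and 1134 in BKF and at 343 and 308 in KMF (log2 fold change 1.57 ± 0.25). Pmaip1, the death gene Noxa, stood at 391 and 443 against 296 and 310 (log2 fold change 0.46 ± 0.07). Sesn1 was the exception, lower in BKF at 963 and 1112 against 1883 and 1792 (log2 fold change -0.83 ± 0.10). Sesn2, which is also a target of Atf4 and was counted in the amino acid list too, stood at 2488 and 2274 against 1323 and 1313. Of the 20 genes 0 were called higher in embryonic BKF and 2 in embryonic KMF.

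Among 17 heat shock and stress genes, 5 were called higher in BKF and 0 in KMF, 29.4% beside 13% of all tested genes. The median log2 change was 0.16. With only the 4 libraries in the fit the counts turned to 0 in BKF and 1 in KMF. Nqo1, an Nrf2 target that detoxifies quinones, stood at 94 and 86 against 12 and 23 (log2 fold change 2.36 ± 0.19, adjusted p = 5.68e-07). Hmox1, haem oxygenase, stood at 386 and 504 against 180 and 166 (log2 fold change 1.35 ± 0.22), and with Slc7a11 these kept their calls without each library. Hspa8, a heat shock protein made in all cells, stood at 42158 and 32713 against 24587 and 28060 and Gclm, of glutathione synthesis, at 819 and 941 against 680 and 715. Hspa8 lost its call without BKF replicate 1 or either KMF replicate, and Gclm without BKF replicate 2 or either KMF replicate. The list held 3 calls without either KMF replicate.

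Of 26 tested glycolysis and hypoxia genes, 5 were called higher in BKF and 0 in KMF, 19.2% beside 13% of all tested genes. Among the 26, 24 were above 0, and the median log2 change was 0.38. Slc16a3, which exports lactate, stood at 326 and 328 in BKF and at 1 and 1 in KMF (log2 fold change 7.36 ± 0.91). It was at 776 and 763 in fibroblasts and at 24 and 440 in the 4F line at passage 8, where the replicates stood far apart. Adm, adrenomedullin, a peptide made under low oxygen, stood at 40 and 43 against 1 and 3 (log2 fold change 3.91 ± 0.48). Ndrg1, another gene of low oxygen, stood at 878 and 980 against 206 and 201, and Hk1, hexokinase, at 2920 and 3068 against 1770 and 1862. Gapdh stood at 92914, the highest value of the scale, in both BKF libraries and at 32713 and 28060 in KMF, so its change is a compressed value. Ndrg1 and Hk1 lost the call without BKF replicate 2 or either KMF replicate, Gapdh when any single library was left out, and the count was then 2 for each of these 3 libraries. In the embryonic lines 12 of the 26 were called higher in BKF and 0 in KMF, with a median of 1.30.

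Growth factor receptor and response genes were called in both directions. Of 22 tested genes of the EGF, FGF and PDGF receptors and their feedback, 4 were called higher in BKF and 3 in KMF. This was 31.8% of the list, beside 13% of all tested genes, with a median log2 change of -0.19. The 4 were Spry1, Spry4, Dusp6 and Etv4, which are switched on by the ERK kinases and, the last aside, restrain them. Spry1 stood at 2202 and 2106 in BKF and at 830 and 894 in KMF (log2 fold change 1.32 ± 0.22, adjusted p = 0.000706). Spry4 stood at 3476 and 3194 against 1368 and 1374 (log2 fold change 1.28 ± 0.28). Etv4 stood at 1106 and 1191 against 548 and 580 (log2 fold change 1.02 ± 0.16). Dusp6 stood at 7516 and 6859 against 3022 and 3165 (log2 fold change 1.21 ± 0.26), with its call lost without KMF replicate 1, where the list held 4 calls. Pdgfra, the PDGF receptor of glial precursors and fibroblasts, was higher in KMF at 258 and 220 against 99 and 102 (log2 fold change -1.24 ± 0.24). The other called higher in KMF were Etv1, an ETS factor like Etv4, at 4756 and 4710 against 4078 and 3254, and Erbb4, a neuregulin receptor, at 1290 and 1099 against 670 and 422. Both lost the call without BKF replicate 2 or either KMF replicate. Egfr was not called, at 5242 and 3924 against 5602 and 5602.

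In the Notch pathway 0 of 17 tested genes were called higher in BKF and 2 in KMF, Notch1 and Rbpj. This share, 11.8%, lay near the 13% of all tested genes, and the median log2 change was -0.33. Rbpj, the DNA-binding partner of the cleaved receptor, stood at 1862 and 1951 in KMF and 1560 and 1480 in BKF (log2 fold change -0.33 ± 0.07), and lost its call without BKF replicate 2 or KMF replicate 2. Without BKF replicate 2 or KMF replicate 2 no Notch gene was called, 1 was called without KMF replicate 1, and 4 without BKF replicate 1. In the Wnt pathway 1 of 24 tested genes was called higher in BKF and 5 in KMF (25.0%). Wnt4, a ligand, stood at 62 and 44 in KMF and 9 and 8 in BKF (log2 fold change -2.49 ± 0.45), and the receptor Fzd1 at 492 and 432 in BKF and 248 and 218 in KMF (log2 fold change 0.98 ± 0.18). The count was 2 without BKF replicate 2 and 3 without either KMF replicate, and Wnt4 and Fzd1 alone of the 6 kept their calls without each library. Of 11 tested Hedgehog pathway genes, 3 were called higher in BKF, Evc, Evc2 and Gas1, and 1 in KMF, Sufu (36.4%). Gas1 lost its call without KMF replicate 1, and Sufu without BKF replicate 2 or KMF replicate 1. Evc, a ciliary protein, was at 12 and 8 in BKF and listed at 0 in KMF, against 434 and 474 in fibroblasts, and its neighbour Evc2 stood at 13 and 22 against 1 and 0.

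Astrocyte genes were called in both directions. Of 19 tested, 3 were called higher in BKF and 3 in KMF, 31.6% beside 13% of all tested genes. The median log2 change was -0.15. Gfap, the astrocyte filament, stood at 154 and 180 in BKF and at 37 and 32 in KMF (log2 fold change 2.24 ± 0.44), far below the 10338 and 10890 of NSC. The other genes called higher in BKF were Gja1, a gap junction gene, at 1630 and 1566 against 1048 and 1116, and Glul, glutamine synthetase, at 6468 and 6702 against 4635 and 4472. Both lost the call when any single library was left out, so that Gfap alone remained higher in BKF in each case. Aqp4, the water channel, stood the other way at 223 and 187 against 498 and 507 (log2 fold change -1.29 ± 0.24). Agt, angiotensinogen, stood at 751 and 938 against 2372 and 2401, and lost its call without BKF replicate 1 or either KMF replicate. Aldh1l1, a folate enzyme of astrocytes, stood at 60 and 67 against 108 and 152, and lost its call without KMF replicate 2. The count was 3 without BKF replicate 1 or KMF replicate 1, and 2 without KMF replicate 2. Of 14 tested neuron genes, 0 were called and 1 had an unadjusted p under 0.05. Of the 16 with deposited values, tested or not, 1 was listed at 0 in both BKF and 2 in both KMF libraries.

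Fibroblast genes were low in both lines and did not move as a set. Of 30 tested, 2 were called higher in BKF and 4 in KMF, 20.0% beside 13% of all tested genes. The median log2 change was -0.24. Summed values of the 30 were 16435 and 13546 in BKF and 8942 and 9293 in KMF, against 808642 and 812609 in fibroblasts. The count was 2 without BKF replicate 2 or KMF replicate 2. It turned to 3 higher in BKF and 2 in KMF without KMF replicate 1, and to 1 and 0 with only the 4 libraries in the fit. Fbln2, a matrix protein, accounted for 6320 and 5322 of the BKF sums and for 768 and 830 of the KMF sums (log2 fold change 2.86 ± 0.55, adjusted p = 0.00268). In fibroblasts it was at 92914, the top of the scale. Prrx1, a mesenchymal factor, stood at 282 and 276 in KMF and 164 and 158 in BKF, and lost its call without BKF replicate 2 or either KMF replicate. Of 10 tested endothelial and leukocyte genes 1 was called, Tek, higher in KMF at 86 and 85 against 36 and 44, and its call was lost without BKF replicate 1 or either KMF replicate. Over the 13 such genes with deposited values, tested or not, the sums were 226 and 252 in BKF and 235 and 379 in KMF. Of these 13, 5 were at 0 in both BKF libraries and 3 in both KMF libraries. Neither of the 2 tested epithelial genes was called, nor had an unadjusted p under 0.05.

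The genes with the largest changes above 0 were mixed in function. Kcnt2, a sodium-activated potassium channel on chromosome 1, stood at 600 and 664 in BKF and at 1 and 2 in KMF (log2 fold change 8.01 ± 0.21, adjusted p = 6.08e-13). It was at 701 and 628 in the fibroblasts, 580 and 466 in NSC and 1 in each library of the 4F line at passage 8. Cspg4, the NG2 proteoglycan of oligodendrocyte precursors, stood at 956 and 581 against 6 and 5 (log2 fold change 6.85 ± 0.42). Mid1ip1, which promotes fatty acid synthesis, stood at 2033 and 2488 against 54 and 40 (log2 fold change 5.57 ± 0.16, adjusted p = 1.35e-12), and at 418 and 461 in fibroblasts. Mfsd2a, the carrier of omega-3 lysolipids, stood at 210 and 203 against 6 and 10, and S100a10, an annexin partner, at 418 and 776 against 13 and 24. Sil1, an exchange factor of the endoplasmic reticulum chaperone BiP, stood at 280 and 340 against 3 and 2. Each of these kept its call without each library.

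Other genes of that rank were Nenf, a secreted neurotrophic protein, at 87 and 138 against 3 and 4, Smpdl3b, a membrane phosphodiesterase, at 131 and 142 against 7 and 2, and Aebp1, a matrix protein of fibroblasts, at 160 and 110 against 6 and 3. Nap1l5, an imprinted single-exon gene, was at 238 and 238 in BKF and at 0 and 40 in KMF. Rtl8a, derived from a retrotransposon, stood at 451 and 501 against 6 and 6, and Pcdhgb6, of the clustered protocadherins, at 850 and 498 against 24 and 27. Both belong to families of near-identical or overlapping transcripts, so that their values are uncertain. Rtl8a was also higher in embryonic BKF, at 124 and 150 against 5 and 5. Pcdhgb6 stood the other way there, at 22 and 26 against 346 and 384.

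On the KMF side, Matn4, a matrix adaptor protein, stood at 265 and 307 in KMF and at 2 and 1 in BKF (log2 fold change -6.87 ± 0.38, adjusted p = 5.86e-09). It was at 10 and 14 in fibroblasts and at 1 and 2 in NSC, so that KMF lay above all of these. Nnat, an imprinted gene of developing brain, stood at 1239 and 1270 in KMF and 38 and 34 in BKF (log2 fold change -5.09 ± 0.26, adjusted p = 2.06e-09). Its NSC values were 16127 and 9708, and the 4F line at passage 8 had 5 and 9. Prrg3, a membrane protein, stood at 166 and 162 in KMF and 1 and 1 in BKF, and Bmf, a promoter of cell death, at 618 and 586 against 90 and 80 (log2 fold change -2.81 ± 0.35). Celsr3, a cadherin of axon guidance, stood at 132 and 136 against 20 and 12, and Brsk2, a kinase of neuron polarity, at 106 and 142 against 15 and 23. Both were high in NSC, at 264 and 106 for Celsr3 and at 556 and 273 for Brsk2.

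Other genes of that rank were of matrix, surface and contraction. Eln, elastin, stood at 410 and 252 in KMF and at 45 and 46 in BKF, and Spock2, a brain proteoglycan, at 254 and 244 against 42 and 40. Cd82, a tetraspanin, stood at 201 and 176 against 9 and 18, and H2-T23, a nonclassical MHC gene, at 105 and 111 against 14 and 13. Actc1, cardiac actin, stood at 743 and 850 against 136 and 145, and Lrrc61, whose role is little known, at 258 and 271 against 44 and 42. Vmn2r52, a pheromone receptor gene of a large family, stood at 570 and 560 against 5 and 4, is uncertain for that reason, and lost its call when any single library was left out.

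The list of imprinted genes, expressed from the copy of a single parent, held calls on the KMF side only. It left out Nap1l5, given above, which was called higher in BKF. Of 20 tested genes in the list, 0 were called higher in BKF and 5 in KMF (median log2 change -0.18). The 5 were 25.0% of the list, beside 6.22% of all tested genes called higher in KMF. Beside Nnat, these were Peg3, a zinc finger gene, at 6859 and 6701 in KMF and 4710 and 3442 in BKF, and Ndn, necdin, at 252 and 242 against 100 and 152. Impact stood at 798 and 858 against 530 and 526, and Cdkn1c at 56 and 61 against 20 and 22. Only Nnat kept its call without each library, with Peg3 lost without BKF replicate 2, Ndn without BKF replicate 1 or KMF replicate 1, and Impact and Cdkn1c when any single library was left out. Each count without a library was 2 or 3. In the embryonic lines Nnat stood the other way, at 2018 and 1928 in BKF and 582 and 556 in KMF (difference of the contrasts -6.88 ± 0.37 in log2, adjusted p = 6.95e-09). Peg3 did so too, at 5162 and 5539 against 2018 and 1883.

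Of 9 tested sex-linked genes, 0 were called higher in BKF and 3 in KMF, 33.3% beside 13% of all tested genes. Kdm5d, a histone demethylase gene of the Y chromosome, stood at 278 and 321 in BKF and at 1648 and 1787 in KMF (log2 fold change -2.52 ± 0.10, adjusted p = 1.76e-10), and at 844 and 802 in the fibroblasts. Its NSC values were 213 and 228 although the 3 other Y-linked genes, Ddx3y, Uty and Eif2s3y, were listed at 0 in both NSC libraries, so that a value of this size was also given to libraries without these transcripts. Ddx3y, an RNA helicase gene, was lower in BKF at 2150 and 2337 against 2922 and 2816 (log2 fold change -0.36 ± 0.06). Eif2s3y, a translation factor gene, was not called, at 2265 and 2900 against 2626 and 2764, nor was Uty, at 1757 and 1665 against 1814 and 1934. The Y-linked genes therefore did not move alike. Kdm6a, on the X chromosome, stood at 858 and 690 in BKF and 1358 in each KMF library, with its call lost without BKF replicate 2. Xist overlapped, at 164 and 180 against 182 and 126, and Eif2s3x, Ddx3x and Kdm5c were not called, the first at 3952 and 4522 against 3608 and 3578. Ddx3x stood at 15156 and 11648 against 12122 and 11648, and Kdm5c at 2488 and 1872 against 2348 and 2274. Kdm5d was higher in embryonic BKF, at 913 and 1002 against 481 and 488.

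Genes listed at 0 in both libraries of a side, with a mean of at least 100 on the other and a call, numbered 12 for KMF and 4 for BKF. Zfp760, a zinc finger gene on chromosome 17, was at 837 and 876 in BKF and listed at 0 in both KMF libraries. It was at 956 or more in every library of the embryonic BKF and KMF lines, the fibroblasts, the NSC and the 4F line at passage 8, so that KMF stood alone at 0 among these. Pdgfd, a PDGF ligand, was at 462 and 588 in BKF and listed at 0 in KMF, and it was also at 0 in the 4F line at passage 8. Rbm46, Tnfsf18, Tslp and Slc5a8 were the other 4 with the highest means, at 620 and 550, 466 and 578, 456 and 446, and 522 and 358 in BKF. Listed at 0 in BKF were Xlr at 512 and 442 in KMF, Zfp982 at 418 and 477, Aspn at 338 and 334 and Olfr726 at 94 and 115. For these 10 genes the lowest value above 0 in any of the 28 libraries was 94 to 837, so that the table held no low values for them between 0 and that level. Calls of Tnfsf18 and Aspn were lost when any single library was left out, and those of Tslp and Slc5a8 without BKF replicate 2 or either KMF replicate. In BKF 151 genes, and in KMF 119, were at 0 in one replicate and at 100 or more in the other.

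Counts of the other lists follow, with few members named, to be read beside the 13% called of all tested genes. Of 24 tested BMP and TGF beta pathway genes, 1 was called higher in BKF and 3 in KMF, the first being Id1, a target of BMP that blocks differentiation factors, at 177 and 273 in BKF and 98 and 86 in KMF. Id1 stood the other way in the embryonic lines, at 76 and 93 against 342 and 396. Of 16 matrix metalloprotease and Timp genes, 2 were called higher in BKF and 3 in KMF. Mmp15 stood at 7994 and 7802 in BKF and 4710 and 4414 in KMF (log2 fold change 0.79 ± 0.15), and Mmp14, a membrane-bound collagenase, at 581 and 564 against 312 and 316. The calls of Id1 and Mmp14 were lost without BKF replicate 2 or either KMF replicate. Of 14 DNA methylation genes 2 were called, both higher in KMF, among them Mbd1, a reader of methylated DNA, at 1016 and 1006 against 474 and 435 (log2 fold change -1.15 ± 0.10).

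Counts higher in BKF and in KMF were 4 and 3 of 22 brain proteoglycan and tenascin genes, 3 and 0 of 22 potassium channel genes, 2 and 1 of 36 axon guidance genes and 0 and 3 of 24 cadherin genes. They were 2 and 1 of 12 oligodendrocyte genes, 2 and 0 of 10 neural crest and Schwann genes, 1 and 1 of 11 smooth muscle genes, 3 and 0 of 10 endoderm genes and 1 and 0 of 6 pluripotency genes. Among immune genes they were 2 and 0 of 22 interferon genes and 3 and 1 of 14 antigen presentation genes. They were 3 and 1 of 20 senescence and secretory genes, 1 and 1 of 20 immediate early genes, 0 and 1 of 8 forebrain genes and 1 and 0 of 10 midbrain and hindbrain genes. None of 22 cholesterol synthesis genes was called, with a median log2 change of -0.23, nor any of 8 germline genes silenced by DNA methylation. At an unadjusted p under 0.05 there were 2 and 1. These shares are read beside the 13% of all tested genes.

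The direction of the difference was set beside that of the embryonic lines, which were made with the same letters of cocktails and share no library with the tail-tip lines. Of the 1098 genes higher in tail-tip BKF, 100 (9.11%) were called higher in embryonic BKF and 112 (10.2%) in embryonic KMF. Of the 1012 higher in tail-tip KMF, 131 (12.9%) were called higher in embryonic BKF and 108 (10.7%) in embryonic KMF. Over all tested genes these shares were 4.96% and 5.30%. As shares of the embryonic lists, the 100 were 12.4% of the 808 and the 108 were 12.5% of the 862. The difference between the contrasts was called for 634 (57.7%) of the first set and 511 (50.5%) of the second. Dbx2 and Nkx2-2, above, were called in the same direction in both origins, and Kdm5d, Nnat and Matn4 in opposite directions.

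**Figure D5:**
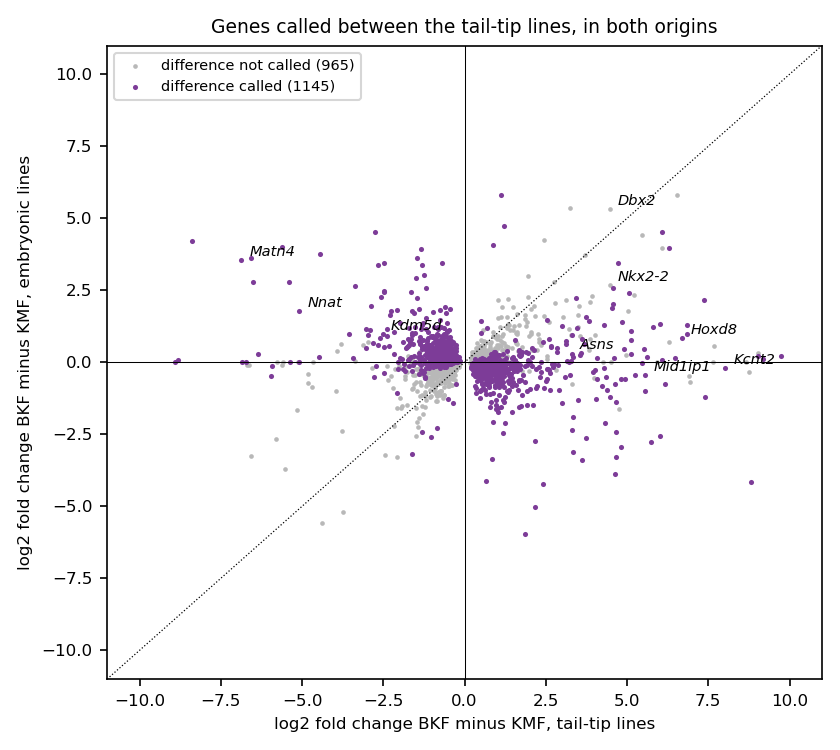
Log2 fold change BKF minus KMF of the 2110 genes called between the tail-tip lines, with the tail-tip contrast on the x axis and the embryonic contrast on the y axis, and the dotted line marking equal changes. Purple points are the 1145 genes whose difference between the contrasts was called, and most points lie near the horizontal line at 0 rather than along the dotted line.

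The 4F line of the same fibroblast label, made with all of B, K, M and eSox17FNV, was set between the lines by the nearer mean. At passage 8 it was nearer BKF for 818 of the 1098 genes higher in BKF (74.5%) and for 726 of the 1012 higher in KMF (71.7%). At passage 18 it was nearer BKF for 520 (47.4%) and 336 (33.2%). The share nearer BKF was thus lower at passage 18 for both sets of genes.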

How the data were processed

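RNA-seq libraries were made from Trizol RNA with oligo(dT) and random hexamers and read on an Illumina machine, per the labels' protocols. RSEM, Bowtie2 2.0 and mm10 are named in the submitters' processing notes. The deposited values, 1 table of 17295 genes by 28 libraries, are whole-number scores after a normalisation that is not given in the sources used here. When sorted, they were nearly the same in every library, with a largest deviation of 2.82, and 92914 is the highest value, shared by several genes. Differences are therefore between ranks brought to 1 common scale, and total RNA per cell cannot be seen. Symbols were matched to GENCODE, where all 17295 were found, and 250-base windows to RefSeq.

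Values were taken as log2(value + 1), and the 16275 genes averaging 10 or more across all 28 libraries entered limma 3.58.1 in R 4.3.3. The model had 1 term for each of 14 groups of 2 and a mean-variance trend, with Benjamini-Hochberg adjustment over all tested genes at 0.05. Contrasts were tail-tip BKF minus KMF, the same for the embryonic lines, and their difference. A call is an adjusted p under 0.05. The fit was tested on simulated data. Tables and figures used Python 3.11.15, pandas 2.3.3, numpy 2.4.6 and matplotlib 3.10.9.

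Genes were named by rule among called genes whose sides did not overlap, with a mean of at least 100 on a side. They were the 15 largest changes each way with neither side at 0, the 6 highest means each way with the other side at 0, and the 5 largest differences between contrasts each way. The 4 members with the smallest adjusted p of each of 48 lists were added. So were all members of the Hox, reprogramming factor, sex-linked and Myc network lists. Atf4, Olig2, Nes, Col1a1, Shmt2, Psph, Pycr1, Vldlr, Mthfd2, Aldh18a1, Psat1, Phgdh, Slc7a5, Ddit3, Odc1, Cdkn1c, Sesn2, Gclm, Gapdh, Spry4 and Egfr fall outside it and were named after their values were seen. The same holds for Gja1, Glul, Etv1, Erbb4, Srm, Cdk4 and Ldha. A gene that the rule names is not reported here. Members and lists were chosen with earlier results of these data known. Alternatives were other pseudocounts, filters, centring, libraries in the fit, variance models, a replicate block and leaving out each replicate.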

Additional observations from a re-analysis of the deposited data

Results flagged for a closer look

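The tail-tip and the embryonic contrast of BKF against KMF differed for 2132 genes, 13.1% of those tested, by the interaction term of the limma fit at an adjusted p under 0.05. The differences below are log2 values, tail-tip minus embryonic, and each passed that test. In the direction of tail-tip BKF they were 8.21 for Kcnt2, 5.86 for Hoxd8, 6.01 for Mid1ip1 and 8.50 for Pcdhgb6. Those for the amino acid genes Asns and Slc3a2 were 2.99 and 2.05, that for Myc 1.82, and that for Id1 3.37. In the direction of tail-tip KMF they were -10.41 for Matn4, -6.88 for Nnat, -6.04 for Brsk2, -3.50 for Kdm5d and -2.21 for Peg3. Mmp14 had -3.22, since it was far higher in embryonic BKF, at 512 and 534 against 32 and 28. Ddx3y had 1.07, with embryonic values of 826 and 808 in BKF and 2190 and 2203 in KMF.

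For genes listed at 0 in a group, the fitted difference depends on the pseudocount and is no fold. These were 12.99 for Tslp, -8.90 for Xlr, -8.88 for Zfp982, -12.62 for Aspn, 12.86 for Klri1, 12.77 for Fstl5, 10.01 for Fap and -10.37 for Papolb. Klri1 was at 420 and 387 in tail-tip BKF and at 0 and 358 in tail-tip KMF, and at 0 and 0 against 360 and 336 in the embryonic lines. Fstl5 was at 339 and 358 against 0 and 0, and at 0 and 0 against 0 and 400. Fap was at 86 and 0 in tail-tip BKF, and Papolb at 152 and 0. Vmn2r86, with 9.93, was at 482 and 4 in tail-tip BKF, 3 and 4 in tail-tip KMF, 4 and 4 in embryonic BKF and 387 and 504 in embryonic KMF. In Klri1, Fstl5, Fap, Papolb and Vmn2r86, replicates of the same group stood far apart.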

How the results depend on the processing

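No named gene changed sign while called. The larger side of a count turned for fibroblast and heat shock genes, as given above, and for neural stem genes, 1 and 0 without BKF replicate 2. It also turned for changes of at least 2-fold, 443 higher in BKF and 475 in KMF without BKF replicate 1, and for the difference, 680 above 0 and 703 below without embryonic KMF replicate 2. Beside 2110 tail-tip calls, 430 were made with only the libraries of the groups compared in the fit, and 294 of these were among the 2110 with the same sign. In that setting the embryonic calls were 1847 beside 1670, and those of the difference 2607 beside 2132. Such fits have fewer residual degrees of freedom, and the part of this in the counts was not tested. Without the NSC group 3516 tail-tip calls were made, with 2724 for the embryonic contrast and 3519 for the difference of contrasts. With only the 20 miNSC libraries, added after seeing the data, the counts were 3236, 2542 and 3270. The cause was not tested. Leaving out each replicate gave 894 to 2867 tail-tip calls, of which 1735 without BKF replicate 1, 818 without BKF replicate 2, 951 without KMF replicate 1 and 939 without KMF replicate 2 were among the 2110. It gave 868 to 982 embryonic calls and 1355 to 2802 for the difference. In these fits the lone sample is assumed to vary like the other groups. Calls higher in BKF were 52.0% of the tail-tip calls and 60.6% without BKF replicate 2. At 2-fold or more, 307 were made with only the 4 libraries. With a replicate block the tail-tip and embryonic counts were 0, also at 2-fold, and the difference 606. Replicate numbers only name the libraries, since deviations of same-numbered BKF and KMF libraries correlated at -0.03 across genes. Other pseudocounts, filters, centring, quantile normalisation and variance models gave 1987 to 2225 tail-tip calls. Of 150 named called genes, 86 kept the call without each library of the comparison, and 89 lost it with only the 4 libraries in the fit. Depth is unknown, so precision at low values rests on the replicates alone.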
